A study of Mus musculus with 12 samples.

Results

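The ERBB receptors are cell-surface tyrosine kinases, and the 4 genes that encode them, Erbb2, Egfr, Erbb3 and Erbb4, were chosen by gene name from 54532 genes measured in mouse mammary tumors. All 4 passed the filter on low counts, among 15504 genes tested. RNA-seq of poly(A)-enriched RNA was run on 12 tumors of MMTV-Neu mice. In these mice the promoter of the mouse mammary tumor virus drives Neu, in its wild-type and unactivated form, in mammary tissue. Tumors had reached a diameter of 4 mm before diets were assigned, and the mice then ate, for 10 days, control diet (4 tumors), diet with MSU-42011 at 100 mg per kg (4 tumors) or diet with bexarotene at 100 mg per kg (4 tumors). MSU-42011 and bexarotene are agonists of the retinoid X receptors, nuclear receptors that pair with other nuclear receptors on DNA, and the control diet held the vehicle of ethanol and coconut oil alone. All 3 groups carried the same transgene, the groups differed only in diet by their labels, and neither age nor strain background was given. The question addressed here is whether either agonist was accompanied by a different level of the receptor family to which Neu belongs.

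ERBB receptors signal as pairs. Egfr, Erbb3 and Erbb4 bind ligands of the EGF and neuregulin families, Erbb2 has no known ligand of its own and serves as the preferred partner of the others, and Erbb3 has little kinase activity and depends on its partner to be phosphorylated. Phosphorylated Erbb3 recruits PI3 kinase through many docking sites, and in mammary tumors driven by Neu the pairing of Erbb2 with Erbb3 is a well known route to growth and survival signals. Neu is the rat form of Erbb2.

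The reference sequence of the kinase domain shows how the members differ and why their reads can be told apart. In active kinases a helix near the nucleotide pocket carries a conserved glutamate that positions the catalytic lysine. The coding bases around that codon, which is in capitals, are shown 5′ to 3′ from the longest transcript of each gene in GENCODE M21 (GRCm38), since this position separates Erbb3 from its relatives.
Erbb2: gaaatcctagatGAAgcgtacgtcatg
Egfr: gaaatccttgacGAAgcctatgtgatg
Erbb4: gagttcatggatGAGgctctgatcatg
Erbb3: gctgtgactgatCACatgctggccgtc
The capitals encode glutamate in Erbb2, Egfr and Erbb4 and histidine in Erbb3. Each stretch of 27 bases crosses from exon 19 to exon 20, so its genomic interval holds an intron: chr11:98433486-98433906 (plus strand) for Erbb2, chr11:16893095-16896908 (plus strand) for Egfr, chr1:68199013-68250591 (minus strand) for Erbb4 and chr10:128572930-128573186 (minus strand) for Erbb3. Over their aligned coding sequences, pairs of members were identical at 63.8% of bases (Egfr and Erbb3) to 66.8% (Egfr and Erbb4). No run of 31 bases was shared between the longest transcripts of the 4 receptors and any transcript of another receptor of the family, and 112 of 10152 such runs in Egfr (1.10%) and 0 in the other members occurred in a transcript of any other gene.

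Erbb2 (ENSMUSG00000062312) lies on chromosome 11 at 98412470-98437716 on the plus strand, Egfr (ENSMUSG00000020122) on chromosome 11 at 16752203-16918158 on the plus strand, Erbb3 (ENSMUSG00000018166) on chromosome 10 at 128567523-128589652 on the minus strand and Erbb4 (ENSMUSG00000062209) on chromosome 1 at 68032186-69108059 on the minus strand. The tables held no separate entry for the Neu transgene, so reads of rat Neu that aligned to mouse Erbb2 and reads of the endogenous gene cannot be told apart, and the Erbb2 values are a total of unknown makeup. Erbb2 overlaps the last bases of Mien1 on the opposite strand by 9 bases, and the genes that overlap the other members had between 0 and 14 reads in all tumors together.

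Total counts per tumor ran from 16583413 to 25925027. The luminal keratin genes Krt8 and Krt18 had median FPKM of 474 and 773 and the epithelial gene Epcam of 1088, whereas the basal keratin genes Krt5 and Krt14 had medians of 0 and 0.0605. Within the luminal list Krt19 was low, with a median of 0.412 normalized CPM (read counts scaled to a common library size), and within the myoepithelial and basal list Oxtr, Acta2 and Mylk were expressed, with medians of 26.9, 21.6 and 18.2 CPM. Bexarotene replicate 1 stood apart from the others, with a first principal component of -115 against -16.2 to 34.2 in the other 11 tumors. In this tumor the summed level of 11 fibroblast markers was 10920 CPM, against at most 861 elsewhere, and the 15 luminal markers summed to 3997, against 6096 to 8003. The receptor tests, the ratios and the correlations were also computed without it.

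Every tumor expressed all 4 receptors. Erbb3 had 3361 to 7530 reads per tumor, Erbb2 1778 to 3191, Egfr 1213 to 2445 and Erbb4 258 to 617. On the deposited FPKM scale, which divides counts by depth and by a gene length, the mean over 12 tumors was 46.1 ± 10.1 (SD, n = 12) for Erbb3, 37.5 ± 6.78 for Erbb2, 26.9 ± 3.89 for Egfr and 4.50 ± 0.813 for Erbb4. Erbb3 exceeded Erbb2 within the same tumor in 10 of 12 tumors, by a mean ratio of 1.24 ± 0.221, so the order of these neighbours was not the same in every tumor. Egfr was below Erbb2 in all 12 tumors, at 0.735 ± 0.151 of its level, although the ranges of FPKM over tumors overlapped (18.6 to 31.9 for Egfr and 29.2 to 55.0 for Erbb2). Egfr exceeded Erbb4 6.10 ± 1.15 times, with no overlap of their ranges.

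The gap between members depended on the length by which counts were divided. The length behind the deposited FPKM equalled the mean length of a gene's annotated transcripts, within 1 base, for 95% of 17099 genes with more than 1 transcript. For Egfr this mean was 2955 bases, from transcripts of 10208, 2943, 716, 463 and 446 bases, and for Erbb4 it was 5399 bases, from transcripts of 12037, 11782, 2196, 744 and 240 bases. Erbb3 has a single annotated transcript of 6016 bases and was therefore the same on either scale. Per kilobase of the longest transcript, the mean level was 46.1 CPM per kb for Erbb3, 24.5 for Erbb2, 7.79 for Egfr and 2.02 for Erbb4. On this scale Erbb3 exceeded Erbb2 in all 12 tumors, 1.89 ± 0.339 times, and Egfr fell to 0.325 ± 0.0670 of Erbb2. The order of the 4 means was the same on the FPKM scale, on this scale and per kilobase of the listed gene length, but the share of Egfr in the family total went from 23.6% of FPKM to 9.87% per kilobase of longest transcript. The share of Erbb3 went from 39.8% to 56.9%, that of Erbb2 from 32.6% to 30.7% and that of Erbb4 from 3.93% to 2.54%. The isoforms present were not measured, so which scale is closer to the number of molecules is unknown.

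**Figure D1:**
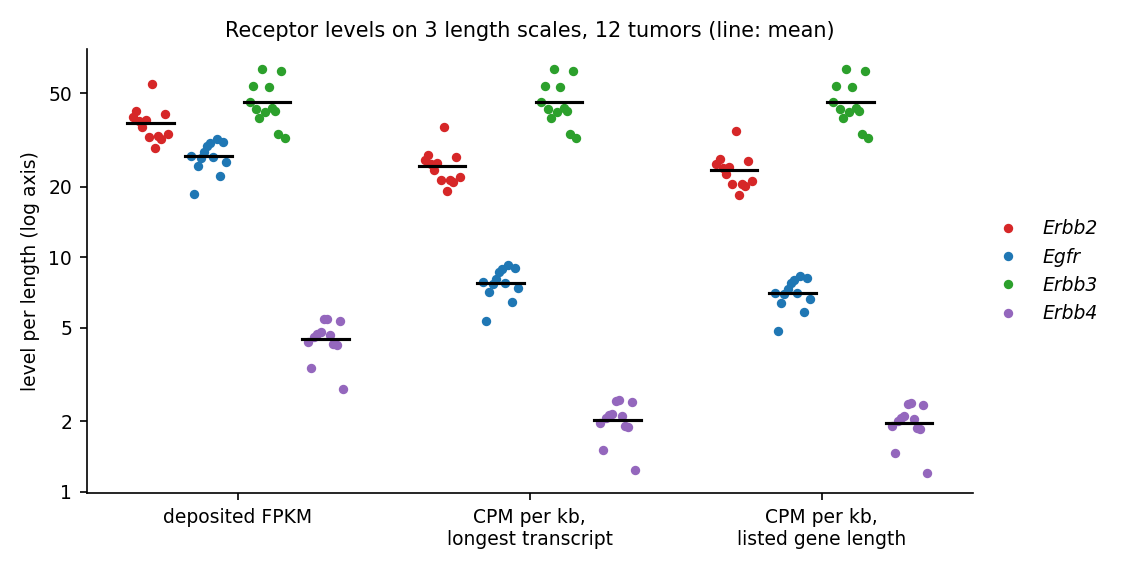
Level of each receptor in 12 tumors (points) on 3 length scales, with the vertical axis logarithmic and the mean as a line. Erbb3 lies highest and Erbb4 lowest on all 3 scales, while the distance between Egfr (mean 26.9 FPKM, 7.79 CPM per kb of longest transcript) and Erbb2 (37.5 and 24.5) widens when the longest transcript is used.

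Among 58 receptor tyrosine kinase genes ranked by mean FPKM over 12 tumors, Kit, the receptor for stem cell factor, ranked first with 284, followed by Epha2 with 283, Fgfr1 with 186 and Ddr1 with 126. Erbb3 ranked 7th and lay between ranks 6 and 9 in single tumors. Erbb2 ranked 9th, between 7 and 12, Egfr ranked 11th, between 10 and 16, and Erbb4 ranked 27th, between 22 and 32. Per kilobase of longest transcript these ranks were 6, 9, 15 and 29. Erbb2 was thus not the most abundant receptor tyrosine kinase by deposited level on either scale, with the limit that the treatment of transgene reads is unknown.

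The levels below are CPM normalized by the TMM method, which corrects for depth and composition but not for gene length, and they compare tumors for a given gene. For Erbb2, the partner receptor, control replicates 1 to 4 had 133, 144, 124 and 123 CPM. The tumors on MSU-42011 had 125, 108, 173 and 93.8 CPM. The tumors on bexarotene had 103, 104, 130.4 and 117 CPM. MSU-42011 replicates 3 and 4 held the highest and the lowest value of all 12 tumors, so the spread of that group (mean 125 ± 34.5, SD, n = 4) enclosed every control and bexarotene value. The control mean was 131 ± 9.69 and the bexarotene mean 114 ± 12.9, with 3 of 4 bexarotene tumors below all controls and 1 within their range.

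For Egfr, the receptor for EGF and TGF-alpha, the control tumors had 81.7, 57.4, 71.8 and 82.1 CPM. The MSU-42011 tumors had 81.6, 88.4, 87.2 and 77.8 CPM. The bexarotene tumors had 90.2, 65.5, 89.7 and 80.1 CPM. Values of 2 tumors in each treated group lay above all controls, and the rest lay within the control range. Group means were 73.3 ± 11.6 for control, 83.8 ± 4.95 for MSU-42011 and 81.4 ± 11.6 for bexarotene (SD, n = 4 each).

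For Erbb3, the neuregulin receptor with the histidine codon shown above, the control tumors had 281, 340.3, 256 and 246 CPM. The MSU-42011 tumors had 375, 252, 306 and 255 CPM. The bexarotene tumors had 243, 200.2, 365 and 206 CPM. In each treated group 1 tumor was above all controls, and 3 bexarotene tumors were below all controls, so bexarotene tumors lay on both sides of the control range. Group means were 281 ± 42.3, 297 ± 57.5 and 254 ± 76.5 (SD, n = 4 each).

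For Erbb4, a neuregulin receptor known for its part in the lactating gland, the control tumors had 24.0, 19.0, 24.5 and 26.6 CPM. The MSU-42011 tumors had 25.6, 29.5, 28.3 and 24.8 CPM, all above the control mean of 23.5 ± 3.23. The bexarotene tumors had 22.0, 22.7, 28.3 and 15.8 CPM, and the last was the lowest of all 12 tumors. The MSU-42011 mean was 27.0 ± 2.24 and the bexarotene mean 22.2 ± 5.10 (SD, n = 4 each). The groups overlapped in every comparison of every receptor.

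**Figure D2:**
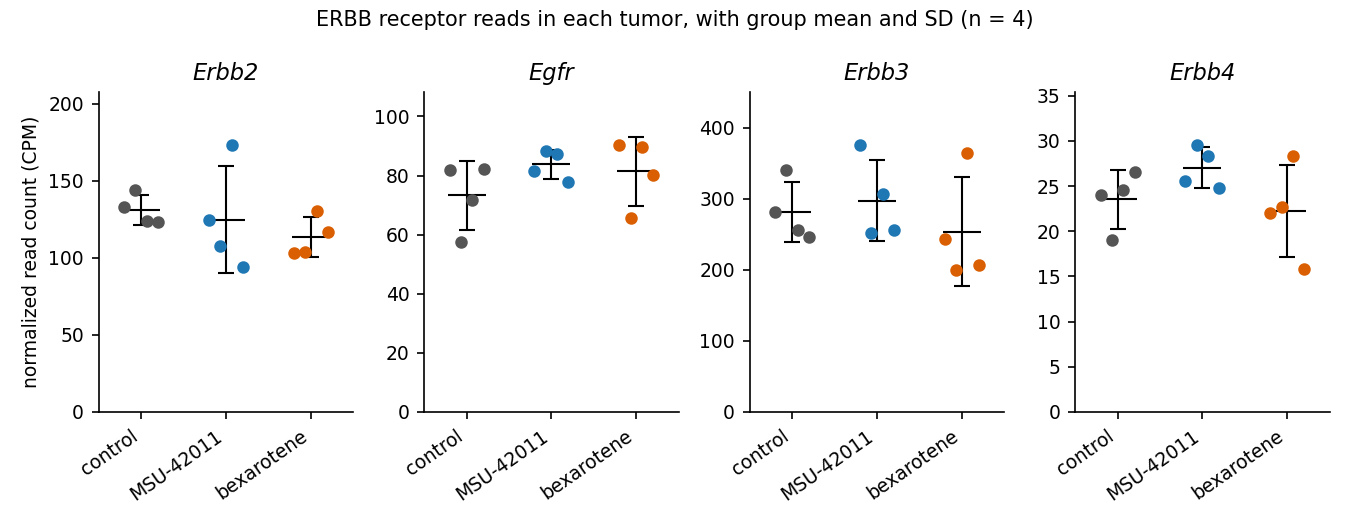
Normalized read count (CPM, linear axis from 0) of each receptor in each tumor, by diet group; horizontal bars give the mean and error bars the SD of 4 tumors. Points of the 3 groups overlap for all 4 receptors, and MSU-42011 holds the highest Erbb2 tumor (173 CPM) and the lowest (93.8 CPM).

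No receptor passed the test in any comparison. In MSU-42011 against control tumors, edgeR's quasi-likelihood test with Benjamini-Hochberg adjustment called 0 of 4 receptors and 0% of all genes tested. At an unadjusted p under 0.05 it also called none of the 4, against 1.14% of genes higher and 0.851% lower, and DESeq2 called 1 gene (0.00338%), which was not a receptor of this family. The groups did not overlap for 0 of 4 receptors and for 1.97% of genes. Erbb2 had a log2 fold change of -0.07 (95% interval -0.43 to 0.29) and Erbb3 of 0.08 (-0.36 to 0.52). For Egfr the log2 fold change was 0.19 (-0.10 to 0.48) and for Erbb4 0.20 (-0.16 to 0.56). The smallest exact two-sided permutation p for a single receptor was 0.143 (Erbb4, 4 tumors against 4), where the smallest value the design allows is 0.0286.

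In bexarotene against control tumors, the same edgeR test with Benjamini-Hochberg adjustment called 0 of 4 receptors and 0% of genes, and at an unadjusted p under 0.05 it called 0 receptors against 4.48% of genes higher and 1.96% lower. DESeq2 called 6 genes (0.0356%) and no receptor. Non-overlap was seen for 0 of 4 receptors and for 2.03% of genes. Erbb2 had a log2 fold change of -0.20 (95% interval -0.56 to 0.15), Egfr of 0.15 (-0.14 to 0.44), Erbb3 of -0.15 (-0.59 to 0.29) and Erbb4 of -0.08 (-0.45 to 0.28). Without bexarotene replicate 1 these were -0.16, 0.10, -0.13 and -0.08. The smallest exact two-sided permutation p was 0.114, for Erbb2. Because these were bulk samples, fewer cells of a type and less RNA per cell cannot be told apart.

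The 2 agonists, given at the same dose for the same time, were compared directly in 4 tests, 1 for each receptor. In MSU-42011 against bexarotene tumors, edgeR's quasi-likelihood test with Benjamini-Hochberg adjustment called 0 of 4 receptors and 0% of genes, and at an unadjusted p under 0.05 it called 0 receptors against 0.819% of genes higher and 3.13% lower. DESeq2 called 25 genes (0.153%) and no receptor. Groups that did not overlap were found for 0 of 4 receptors and for 1.17% of genes. All 4 estimates were above 0, at 0.14 for Erbb2 (95% interval -0.22 to 0.50), 0.04 for Egfr (-0.25 to 0.33), 0.23 for Erbb3 (-0.21 to 0.67) and 0.28 for Erbb4 (-0.08 to 0.65). The Erbb4 contrast had the smallest unadjusted p of all 12 receptor tests, 0.115, with an adjusted p of 0.997 by the Benjamini-Hochberg method in edgeR. These intervals do not show that the agonists act alike: differences of up to 1.59 times for Erbb3 and 1.57 times for Erbb4 lie within them. All 3 comparisons share groups and are not independent of each other. Over the 12 tests, the intervals ran from 0.666 to 1.59 times and every one held a ratio of 1.

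Leaving out bexarotene replicate 3, which had the highest Erbb2, Erbb3 and Erbb4 of its group, gave the lowest edgeR p-values. Without it Erbb3 was lower in bexarotene than in control tumors by a log2 fold change of -0.38 (unadjusted p = 0.0460, adjusted p = 0.482, edgeR with Benjamini-Hochberg) and higher in MSU-42011 than in bexarotene tumors by 0.46 (unadjusted p = 0.0192, adjusted p = 0.562, edgeR with Benjamini-Hochberg). Erbb4 then differed between MSU-42011 and bexarotene by 0.42 (unadjusted p = 0.0241, adjusted p = 0.572, edgeR with Benjamini-Hochberg). The remaining bexarotene tumors had at most 117 CPM of Erbb2, below all controls (123 or more). Their Erbb3 was at most 243 CPM, below all control (246 or more) and MSU-42011 tumors (252 or more). Their Erbb4 was at most 22.7 CPM, below all MSU-42011 tumors (24.8 or more). These separations followed the removal of the highest tumor of the group. The share of all genes that separated, or reached an unadjusted p under 0.05, without this tumor is not given here. How unusual the receptors were in that fit therefore cannot be told. Tested over the 3 groups together with edgeR, the receptors had unadjusted p-values of 0.253 (Erbb4), 0.350 (Egfr), 0.476 (Erbb2) and 0.534 (Erbb3), each with an adjusted p of 0.998 by the Benjamini-Hochberg method, where 0 genes passed, 4.24% of genes had an unadjusted p under 0.05 and DESeq2 called 5 genes (0.0296%), none of them a receptor of this family.

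**Figure D3:**
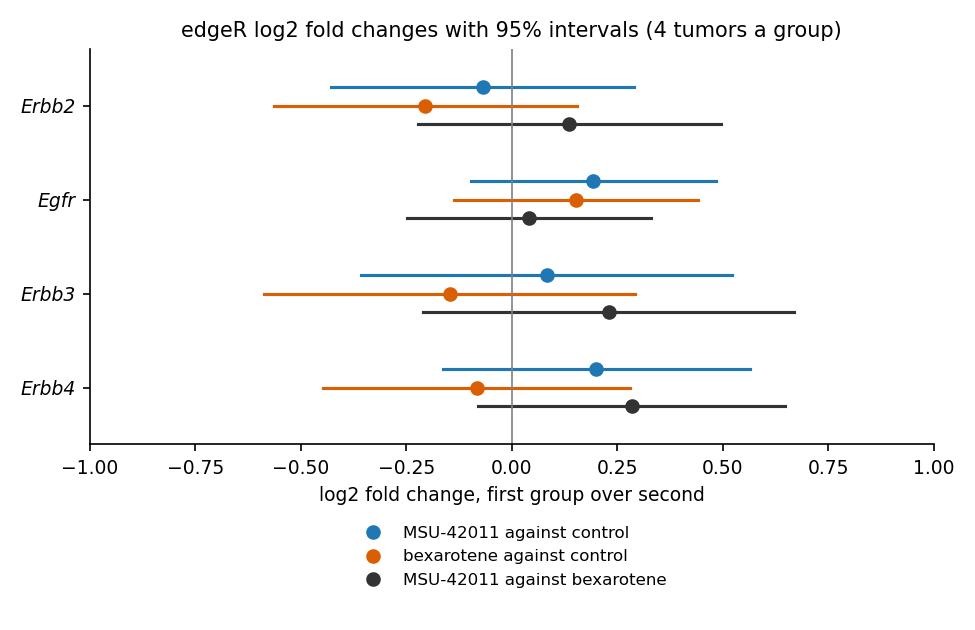
Log2 fold change (points) and 95% interval (lines) of each receptor from edgeR in 3 comparisons of 4 tumors against 4. All 12 intervals cross 0, and their ends lie between -0.59 and 0.67.

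The receptors were not unusually variable genes. The SD of log2 CPM over 12 tumors was 0.24 for Erbb2, 0.20 for Egfr, 0.30 for Erbb3 and 0.26 for Erbb4, against a median of 0.30 over all genes tested. A smaller SD was found for 37.5% of genes in the case of Erbb2, 26.3% for Egfr, 49.1% for Erbb3 and 41.8% for Erbb4.

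The makeup of the family within a tumor, which does not depend on scaling between tumors, was compared on FPKM. Erbb2 made up 34.0%, 35.6%, 34.6% and 33.8% of the family total in the control tumors. In the MSU-42011 tumors it made up 28.7%, 29.8%, 38.1% and 28.1%, so 3 tumors lay below all controls and 1 above. In the bexarotene tumors it made up 29.5%, 34.7%, 29.3% and 35.7%. The mean shares were 34.5% ± 0.804 for control, 31.2% ± 4.69 for MSU-42011 and 32.3% ± 3.40 for bexarotene (SD, n = 4 each), and neither agonist group differed from control by an exact two-sided permutation test (p = 0.171 and p = 0.400). The log2 ratio of Egfr to Erbb2 was -0.70 ± 0.33 in control, -0.39 ± 0.34 in MSU-42011 and -0.34 ± 0.21 in bexarotene tumors. Its difference between bexarotene and control, 0.36, had the smallest p of the 12 comparisons of makeup (exact two-sided permutation p = 0.0571, adjusted over the 12 by Benjamini-Hochberg 0.686). The ratio was above the control mean in all 4 bexarotene tumors, and the groups overlapped. The log2 ratios of Erbb3 and Erbb4 to Erbb2 differed between groups by 0.03 to 0.31 in size, with exact two-sided permutation p-values from 0.229 to 0.914.

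Across the 12 tumors, Erbb2 and Erbb3 tended to be high in the same tumors. Their Spearman correlation of log2 CPM was 0.727 (permutation p = 0.00963, adjusted over 6 pairs 0.0578) and their Pearson correlation 0.566 (permutation p = 0.0536, adjusted 0.302). Without the 2 tumors farthest from the median of Erbb2 the Pearson correlation was 0.692. Neither adjusted value passed 0.05 over all 12 tumors, and without bexarotene replicate 1 the rank correlation was unchanged at 0.727 with an adjusted permutation p of 0.0451 over the 6 pairs. Many genes were as close: without that tumor, Erbb3 ranked 1984th by Pearson correlation with Erbb2, among the 15504 genes tested. Erbb2 ranked 2055th by Pearson correlation with Erbb3. Egfr and Erbb4 had a Pearson correlation of 0.492 and a Spearman correlation of 0.517 (permutation p = 0.101 and 0.0898, adjusted 0.302 and 0.269), and without the 2 tumors farthest from the median of Egfr the Pearson correlation was 0.299. Without bexarotene replicate 1 their Pearson correlation was 0.571 (permutation p = 0.0651, adjusted 0.237) and their Spearman correlation 0.809 (permutation p = 0.00394, adjusted 0.0236). Leaving out also the 2 of these 11 tumors farthest from the median of Egfr gave a Pearson correlation of 0.440 (permutation p = 0.236). Among the 15504 genes and in the 11 tumors, Erbb4 ranked 564th by Pearson correlation with Egfr, and Egfr ranked 428th with Erbb4. The other 4 pairs had Pearson correlations from -0.0421 to 0.371, with permutation p-values of 0.236 or more. Egfr and Erbb2, both on chromosome 11, showed no common movement, with a Pearson correlation of -0.0421.

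Erbb2 tended to be lower in tumors with more RNA of cell division genes. The summed CPM of 10 proliferation genes, among them Mki67, a marker of cycling cells, and Top2a, which untangles replicated DNA, was 501, 450, 670 and 637 in the control tumors. It was 607, 862, 330 and 741 in the MSU-42011 tumors, and 557, 751, 638 and 706 in the bexarotene tumors. MSU-42011 replicate 3 had the lowest sum and the highest Erbb2, and control replicates 2 and 1 followed in both orders. The Pearson correlation of log2 values over 12 tumors was -0.830 (permutation p = 0.000950, adjusted over 36 relations of members with marker lists 0.0342), and the Spearman correlation was -0.727 (permutation p = 0.0101, adjusted 0.181). Without MSU-42011 replicate 3 and control replicate 2, the tumors farthest from the median sum, the Pearson correlation was -0.525 (permutation p = 0.121, n = 10), so over all 12 tumors the test did not pass without that pair. Without bexarotene replicate 1 the Pearson correlation was -0.911 (permutation p = 0.0001, adjusted 0.0036) and the Spearman correlation -0.918 (permutation p = 0.00023, adjusted 0.00828), and the Pearson correlation of these 11 tumors without the 2 farthest from their median was -0.757 (permutation p = 0.0165). Leaving out any 1 tumor of the 12 gave Pearson correlations from -0.911 to -0.672. Centred on group means the Pearson correlation was -0.816, with an adjusted permutation p of 0.0828.

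All 10 genes of the proliferation list were negatively correlated with Erbb2, from -0.825 for Aurkb, a mitotic kinase, to -0.556 for Aurka, another. Mki67 had -0.823 and Pcna, the sliding clamp of DNA replication, -0.725. The same 10 genes had Pearson correlations from -0.603 to -0.0933 with Erbb3, from -0.260 to 0.521 with Egfr and from -0.210 to 0.354 with Erbb4. For the summed list the correlation was -0.474 with Erbb3, 0.0375 with Egfr and -0.00974 with Erbb4 (permutation p = 0.118, 0.908 and 0.975). Whether the correlation of Erbb2 differed from those of the other members was not tested.

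**Figure D4:**
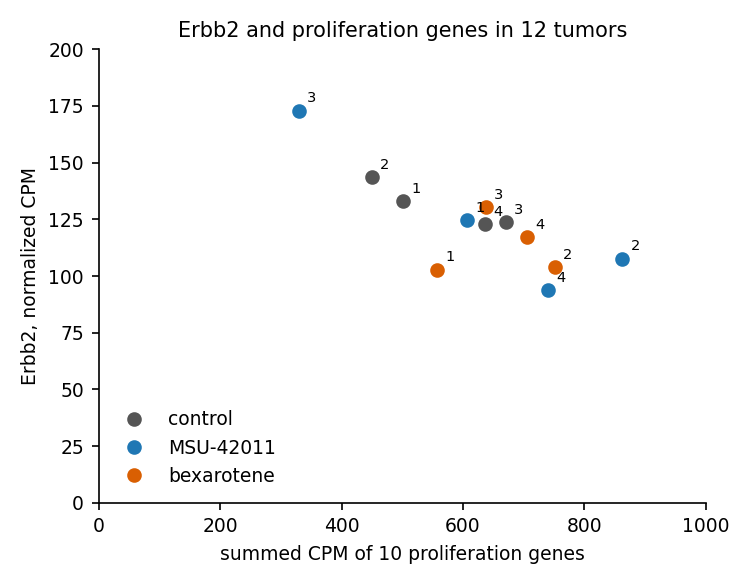
Normalized Erbb2 count (CPM) against the summed CPM of 10 proliferation genes in each tumor, with replicate numbers beside the points and colors for diet. The tumor with the lowest sum (330) has the highest Erbb2 (173 CPM), the tumor with the highest sum (862) has 108 CPM, and bexarotene replicate 1 lies below the other points at its sum of 557.

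Markers of other cell types were set beside the receptors in the same 36 relations. The luminal list correlated with Erbb2 at 0.459 (Pearson, permutation p = 0.137, adjusted 0.968) and 0.622 (Spearman, permutation p = 0.0355, adjusted 0.426). Without the 2 tumors farthest from the median of the list the Pearson correlation with Erbb2 was 0.290, and centred on group means the Spearman correlation was 0.678 (permutation p = 0.0180, adjusted 0.216). Without bexarotene replicate 1 the Pearson correlation was 0.393 (permutation p = 0.237, adjusted 0.843). The Spearman correlation was then 0.518 (permutation p = 0.107, adjusted 0.644). The luminal list correlated with Egfr at -0.369 (Pearson, permutation p = 0.218) and -0.259 (Spearman, permutation p = 0.416). Egfr correlated negatively with the list of 8 Schwann cell markers, at -0.728 (Spearman -0.762, permutation p = 0.0101 and 0.00539, adjusted 0.182 and 0.181, and -0.620 without the 2 farthest tumors). Without bexarotene replicate 1 the Pearson correlation was -0.806 (permutation p = 0.00267, adjusted 0.0481) and the Spearman correlation -0.691 (permutation p = 0.0227, adjusted 0.366), and without the 2 farthest of these 11 tumors the Pearson correlation was -0.409. Sox10, which luminal mammary tumor cells can also express, made up 85.0% of the summed level of that list, while Foxd3 had no reads. Whether these cell types had a part in the levels of the receptors was not tested. In bexarotene replicate 1, where fibroblast markers were highest, Egfr was 90.2 CPM, the highest of 12 tumors, Erbb2 was 103 CPM, the second lowest, and Erbb3 and Erbb4, at 243 and 22.0 CPM, lay inside the range of the other tumors.

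In human breast cancer, amplification of ERBB2 raises neighbouring genes with it, so the 13 genes within 100 kb of mouse Erbb2 were read beside it. Of these 8 were tested and 2 had no reads. The median FPKM over 12 tumors was 42.6 for Stard3, 24.5 for Pgap3, 71.8 for Mien1 and 43.3 for Grb7, an adaptor that binds ERBB receptors, against 37.0 for Erbb2 itself. Over 12 tumors the log2 CPM of Pgap3 correlated with that of Erbb2 at 0.740 and that of Grb7 at 0.554, whereas Stard3 had 0.189 and Mien1 -0.401 (Pearson, as a description). In edgeR's test with Benjamini-Hochberg adjustment none of the 8 passed, while the muscle gene Tcap and the antisense gene Gm12352 had an unadjusted p under 0.05 in 2 comparisons each. Tcap was lower in MSU-42011 than in control and bexarotene tumors, as were 0.851% and 3.13% of all genes at that p. It had 376 reads in all tumors together, with a median of 0.0546 FPKM and a highest value of 11.3. Summed skeletal muscle markers reached 147.6 CPM in the highest control tumor (group median 3.07) and 269.5 CPM in bexarotene replicate 1. Gm12352 was lower in bexarotene than in control and MSU-42011 tumors, for which the shares of all genes were 1.96% and 0.819%. Grb7 had log2 fold changes of 0.03 in MSU-42011 and -0.19 in bexarotene against control tumors. DNA copy number was not measured. The position of the Neu transgene was not given, so these neighbours of the native gene cannot report on the transgene.

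The genes whose log2 CPM was most like that of each receptor over the 12 tumors, by Pearson correlation and as a description, were Tprn (0.94), Aftph (0.92) and Stat6 (0.90) for Erbb2. For Egfr they were Pola1 (0.91), Gm48496 (0.88) and Gm4070 (0.86). For Erbb3 they were Mtrf1 (0.94), Cstf2t (0.92) and Ppm1b (0.91), and for Erbb4 Pls1 (0.88), Ube2g1 (0.84) and Gm340 (0.83). No receptor was among the 3 most like genes of another.

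Of the 11 genes for ERBB ligands, 7 passed the filter on low counts. By mean FPKM over 12 tumors the most abundant were the Egfr ligands Tgfa with 34.8 and Egf with 26.5, followed by Nrg2, a neuregulin that binds Erbb3 and Erbb4, with 21.4. Btc, which binds Egfr and Erbb4, had 4.09, Nrg1 2.03, Hbegf 1.61 and Nrg4 1.07. Nrg3 had no reads in any tumor, which at 3 counts as a floor leaves a low level undetectable. Of 338 reads of Areg, 319 came from bexarotene replicate 1, and Ereg and Epgn had 32 and 68 reads in all. Epgn, not tested and at 3 to 14 reads per tumor, had 0.148 to 0.194 CPM in bexarotene tumors. Control tumors had 0.237 to 0.603 CPM of Epgn, so these groups did not overlap, as for 2.03% of genes tested.

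Nrg1, the main ligand of Erbb3 and Erbb4, was the single tested ligand for which a treated group lay apart from control. Control tumors had 0.949, 1.09, 1.12 and 0.776 CPM and bexarotene tumors 10.3, 8.92, 4.41 and 10.9 CPM, so the groups did not overlap, as for 2.03% of genes. The log2 fold change was 3.12 ± 0.76 (SE) with an unadjusted p of 0.00133 and an adjusted p of 0.762 by edgeR with Benjamini-Hochberg, while DESeq2 gave an adjusted p of 0.0121. MSU-42011 tumors had 1.21, 9.21, 0.542 and 1.17 CPM, of which only replicate 2 was in the bexarotene range, and without that tumor the edgeR call for bexarotene against control had an adjusted p of 0.0454 by Benjamini-Hochberg. Without bexarotene replicate 1, the tumor rich in fibroblast markers, the log2 fold change was 3.03. In the same bexarotene tumors the receptors of Nrg1 had log2 fold changes of -0.15 (Erbb3) and -0.08 (Erbb4), neither of which passed the test.

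**Figure D5:**
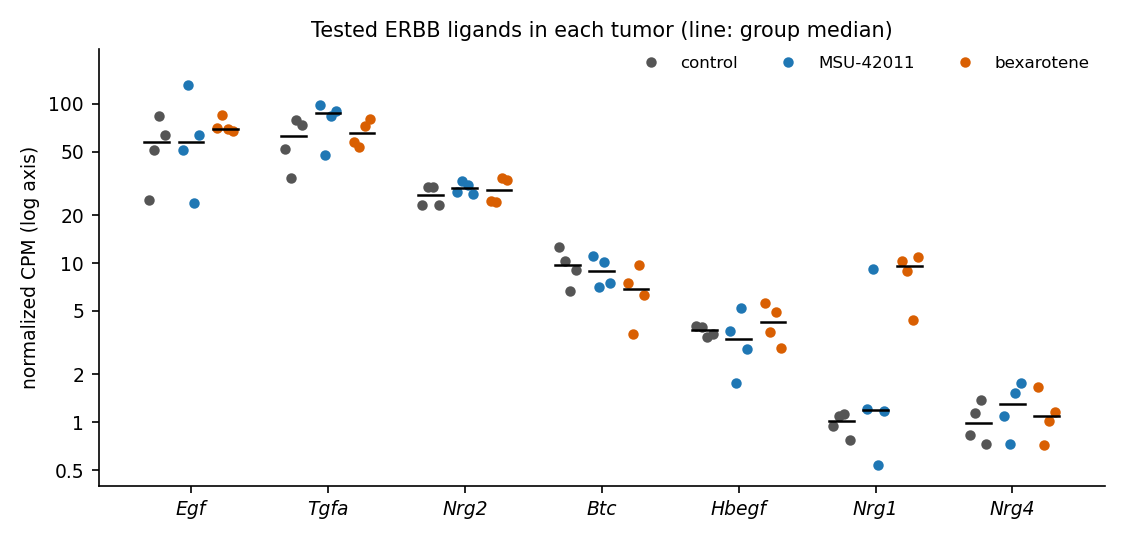
Normalized CPM (logarithmic axis) of the 7 tested ERBB ligand genes in each tumor, by diet group, with the group median as a line; heights compare tumors for a gene, not genes with each other. Nrg1 is at 4.41 to 10.9 CPM in bexarotene tumors and at 0.776 to 1.12 CPM in control tumors, and 1 MSU-42011 tumor reaches 9.21 CPM.

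Other genes of the pathway were read from lists of ligand sheddases, adaptors and effectors, negative regulators, chaperones and stabilizers, and ERK feedback genes. No gene of these 5 lists passed edgeR's test with Benjamini-Hochberg adjustment in any of the 3 comparisons, and DESeq2 called none of them. At an unadjusted p under 0.05 edgeR gave 0 genes of these lists in MSU-42011 against control, 1 in bexarotene against control (Src, lower, as were 1.96% of all genes) and 1 in MSU-42011 against bexarotene (Socs3, a feedback inhibitor of cytokine signaling, lower, as were 3.13% of all genes). The share of all genes was 1.14% higher and 0.851% lower in MSU-42011 against control. Of 32 tested adaptors and effectors, 12 were above and 20 below control in MSU-42011 tumors (median log2 fold change -0.03, against 0.00155 over all genes tested). In bexarotene tumors 10 were above and 22 below (median -0.10, against 0.03 over all genes). Without bexarotene replicate 1, 3 were above and 29 below (median -0.09, against 0.00621 over all genes). Over all 12 tumors the kinase gene Src had the smallest p of the adaptors and effectors, with a log2 fold change of -0.28 (unadjusted p = 0.0191, adjusted p = 0.762, edgeR with Benjamini-Hochberg) in bexarotene and -0.21 in MSU-42011 tumors. Neither Src nor Socs3 was called lower without bexarotene replicate 1. In that fit no adaptor or effector had an unadjusted p under 0.05 in bexarotene against control. There 1 negative regulator and 1 chaperone or stabilizer were lower at that p. In MSU-42011 against bexarotene, 0 negative regulators were then lower and 2 higher. Socs3 was 12.3 ± 14.7 CPM (SD) in bexarotene and 2.35 ± 0.885 CPM in MSU-42011 tumors.

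Of 16 negative regulators, 9 were above and 7 below control in MSU-42011 tumors (median 0.03) and 10 above and 6 below in bexarotene tumors (median 0.05). Errfi1, a feedback inhibitor that binds ERBB kinases, had 287 ± 31.04 CPM in control, 281 ± 86.5 in MSU-42011 and 301 ± 85.6 in bexarotene tumors (SD, n = 4 each). Of 10 tested chaperones and stabilizers, 5 were above and 5 below control in MSU-42011 tumors and 4 above and 6 below in bexarotene tumors (medians -0.00425 and -0.07), and Hsp90ab1, a chaperone on which Erbb2 protein depends, had 1837 ± 255, 1985 ± 98.6 and 1769 ± 257 CPM in the 3 groups. Among 7 sheddases, which release ligands from the membrane, 2 were above and 5 below control in each agonist group (medians -0.08 and -0.05). Of 21 ERK feedback genes, whose transcription follows ERK activity, 13 were above and 8 below control in MSU-42011 tumors and 12 above and 9 below in bexarotene tumors (medians 0.06 and 0.08). Without bexarotene replicate 1, 7 negative regulators were above and 9 below control in bexarotene tumors (median -0.05). Chaperones and stabilizers were then 5 above and 5 below (median -0.02), sheddases 0 above and 7 below (median -0.15), and ERK feedback genes 12 above and 9 below (median 0.02). Dusp6, a phosphatase of ERK, had 647 ± 178, 706 ± 137 and 674 ± 187 CPM in control, MSU-42011 and bexarotene tumors (SD, n = 4 each). Phosphorylation and protein of the receptors were not measured in these data.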

How the data were processed

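RNA-seq was analysed in 12 mouse mammary tumors, grouped by their labels. The authors deposited raw read counts per gene, whole numbers without normalization, and FPKM, in which the authors divided counts by total count and gene length. The submitters' processing notes name STAR 2.6.1d, featureCounts 1.5.0-p3 and DESeq2. Genome build and strand setting were not given in the sources used here, and gene coordinates equalled those of GENCODE M21 (GRCm38) for 98.3% of 54495 matched genes. Depth ran from 16583413 to 25925027 counts per tumor, which limits what low counts can show (3 counts are the floor used).

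Counts were normalized by TMM, filtered with filterByExpr (minimum count 10) and tested with edgeR 4.0.16 (glmQLFit and glmQLFTest, R 4.3.3) in 1 model over the 3 groups, with Benjamini-Hochberg adjustment over 15504 genes and a threshold of 0.05. Single receptors were tested by exact two-sided permutation tests on log2 CPM with a pseudocount of 0.5. The log2 ratios and the share of Erbb2 were tested in the same way on FPKM, without a pseudocount. Correlations had 100000 permutations. The edgeR and exact tests were checked on simulated data. Genes were named by a rule: the 4 receptors, every ligand, genes within 100 kb of Erbb2, the most abundant genes and those with the smallest p of each list, and the 3 genes most like each receptor. Marker and proliferation genes outside this rule were named after their values were seen. Receptors and lists were chosen with earlier results of these data known. Alternatives were DESeq2 1.42.0, limma 3.58.1 on log2(FPKM + 1) and log2(FPKM + 0.1), DESeq2 size factors, other filters, robust estimation, each comparison fitted alone, a replicate block, each tumor left out, and other length scales, of which the longest-transcript scale was chosen after seeing the data. Sequences were read from GENCODE M21 with Biopython 1.88. The study states 4 mice per group, but no label ties a tumor to a mouse, and p-values measure the spread between tumors.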

Additional observations from a re-analysis of the deposited data

Results flagged for a closer look

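In 45 groups of 4 tumors, the gap between the most extreme tumor and its nearest neighbour was set against the range of the group, and 2 exceeded Dixon's 95% critical value for 4 values, where chance gives about 1 in 20 groups. The log2 ratio of Erbb4 to Erbb2 was -3.61 in bexarotene replicate 4, while the other bexarotene tumors lay between -2.94 and -2.92. This tumor had the fewest Erbb4 reads of all 12 tumors, 258, at an Erbb2 level of 117 CPM. Nrg1 was 9.21 CPM in MSU-42011 replicate 2, against 0.542 to 1.21 CPM in the other tumors of that diet. The same tumor had the highest summed level of the proliferation genes, 862 CPM, and the highest Egf, 131.5 CPM, of all 12 tumors.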

How the results depend on the processing

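In 264 alternative fits of the 12 receptor contrasts, 259 kept their direction, 5 reversed and 0 had an adjusted p under 0.05 (smallest 0.482). All 5 reversals came from leaving out 1 tumor, which moved the log2 fold change of Erbb2 from -0.268 to 0.0448 and of Erbb3 from -0.0490 to 0.187 (MSU-42011 against control), of Erbb4 from -0.223 to 0.0419 (bexarotene against control), and of Erbb2 from -0.0621 to 0.257 and Egfr from -0.0503 to 0.0938 (MSU-42011 against bexarotene). The tumors behind these were MSU-42011 replicates 4, 1 and 3 and bexarotene replicates 4 and 2. The differences behind the exact tests ran, in the same order, from -0.273 to 0.0200, -0.0429 to 0.171, -0.225 to 0.0481, -0.0651 to 0.228 and -0.0494 to 0.103. For makeup, leaving out 1 tumor gave 0.205 to 0.452 for log2 Egfr over Erbb2 in bexarotene against control, passing 0.05 without control replicate 4 (exact p = 0.0286, unadjusted). The value of 0.205 came without control replicate 2, whose ratio was -1.17, against -0.637 to -0.433 in the other controls. The same ratio gave -0.143 to 0.0960 in MSU-42011 against bexarotene. In bexarotene against control, log2 Erbb3 over Erbb2 gave -0.0918 to 0.131 and log2 Erbb4 over Erbb2 -0.0410 to 0.275. The share of Erbb2 gave -5.63 (without MSU-42011 replicate 3, exact p = 0.0286, unadjusted) to -2.28 percentage points in MSU-42011 against control and -3.44 to 0.00927 in MSU-42011 against bexarotene. The causes were not tested.

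Over all genes, DESeq2 called 5, 1, 6 and 25 genes (3 groups, MSU-42011 against control, bexarotene against control, MSU-42011 against bexarotene), and 11, 7, 7 and 41 when Cook's distance was not used to drop genes, limma on log2(FPKM + 0.1) called 1 for the 3 groups and 1 for bexarotene against control, and leaving out 1 tumor gave 0 to 1 call in both, with the call without MSU-42011 replicate 2 being Nrg1. Length alone changed ratios of levels, which were 1.89 and 1.97 (longest transcript and listed gene length) for Erbb3 over Erbb2, 0.325 and 0.305 for Egfr over Erbb2, 0.0839 and 0.0850 for Erbb4 over Erbb2, 6.02 and 6.68 for Erbb3 over Egfr and 3.94 and 3.64 for Egfr over Erbb4. With a replicate block edgeR called 0 genes in every comparison. The labels tied same-numbered tumors by a number alone. Their deviations from group means correlated from -0.352 to 0.349, against -0.306 to 0.361 for other pairs, and above 0.1 in 4 of 12 pairs. Of 12 tumors, 7 were closest to their own number, and whether the numbers mark a batch was not tested.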
